A study of Mus musculus with 3 samples.

Results

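Losartan-treated *Fbn1mgR/mgR* mice (mgR-LOS) were compared with WT littermates to see which differences from the normal ascending aorta were present under treatment. The comparison rests on 15401 barcodes, those that fell into a smooth muscle cell (SMC) gate or a fibroblast gate, out of 18082 barcodes of these 2 libraries that passed quality control and 26158 in all 3 libraries of the series. Quality control required 600 to 5000 detected genes and a mitochondrial share of no more than 10% of the unique molecular identifiers (UMIs, the tags that count captured transcripts). With values per 10000 UMIs, an SMC had a sum of at least 150 over *Acta2*, *Myh11*, *Tagln*, *Cnn1*, *Myl9* and *Tpm2* and less than 10 of *Dcn*, and a fibroblast had at least 20 of *Dcn*, a sum under 100 over that panel and no UMI of *Ptprc* or *Pecam1*.

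Each library was made with a 3′ droplet kit from pooled ascending aortas of male C57BL/6J mice at P45, with 3 WT mice in one pool, 3 *Fbn1mgR/mgR* mice (mgR) in another and 4 *Fbn1mgR/mgR* mice given losartan at 0.6 g/L in the drinking water from P16 in the last. The mgR allele is hypomorphic in every cell of the mouse, so both mutant libraries carry it. The study describes vehicle in the drinking water for mutant and WT arms, but the labels do not say whether the animals of the WT and mgR libraries received it. With 1 library per condition there was no replicate, so no test was made, and the intervals in parentheses are 95% intervals for counting error only. Levels are UMIs per 1000000 UMIs of the gate (CPM), a ratio is mgR-LOS over WT unless stated otherwise, and a gene was called past 2-fold at a ratio of at least 2 or at most 0.5 where its mean over WT and mgR-LOS was at least 20 CPM. The mgR values are given beside those of mgR-LOS, and both comparisons share the WT library.

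Fibrillin-1, the product of *Fbn1*, is the main protein of the microfibrils that scaffold elastic fibers and hold latent TGF-β complexes in the aortic wall, and its deficiency causes Marfan syndrome. SMCs of the media contract through actin and myosin and lay down the elastic lamellae, whereas adventitial fibroblasts make most of the fibrillar collagen and respond to injury with chemokines. Losartan blocks the angiotensin II type I receptor, through which angiotensin II raises vascular tone and matrix production.

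The SMC gate held 3561 barcodes of WT, 66.4% of those that passed (65.1 to 67.7), and 7832 of mgR-LOS, 61.6% (60.7 to 62.4), a difference of -4.86 percentage points (-6.38 to -3.32). The fibroblast gate held 1173 barcodes of WT (21.9%) and 2835 of mgR-LOS (22.3%), a difference of 0.406 points (-0.936 to 1.73). These shares depended on the mitochondrial limit. At 5% the SMC gate held 27.2% of WT and 41.4% of mgR-LOS, a difference of 14.2 points in the other direction, and the difference for fibroblasts was -15.5 points. In mgR the SMC gate took 37.7% of 8076 barcodes and the fibroblast gate 25.4%. Barcodes of WT held more UMIs, with a median of 14426 per SMC and 11409 per fibroblast against 8551 and 8013 in mgR-LOS. The gates held 50887627 and 13041728 UMIs of WT and 70578283 and 23082595 of mgR-LOS. The 2 libraries shared 29 barcode sequences, 12 of them in the gates. The WT and mgR files name another version of the counting software than the mgR-LOS file, and this difference and the group cannot be told apart.

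Markers outside the gate definition matched the names of the gates. The markers of SMCs (*Cald1*, *Smtn*, *Lmod1*, *Mylk*, *Synpo2*, *Des*, *Pln*, *Sost* and *Kcnmb1*) summed to 7028 CPM in WT SMCs and 6714 CPM in mgR-LOS SMCs, against 511 and 789 CPM in the fibroblast gate. The markers of fibroblasts (*Pdgfra*, *Lum*, *Dpt*, *Col1a1*, *Col1a2*, *Serpinf1*, *Clec3b* and *Pi16*) summed to 20691 CPM in WT fibroblasts and 26598 CPM in mgR-LOS fibroblasts, against 3389 and 3119 CPM in the SMC gate. Of 3 fibroblast markers measured in the SMC gate, *Lum* was past 2-fold higher in mgR-LOS, with a log2 ratio of 1.61. The other 2 had ratios below 1. No marker of either list was at 0 in its own gate. Few barcodes lay near the limits, with 15 WT and 115 mgR-LOS SMCs at a panel sum of 150 to 200 and 12 and 61 barcodes just outside it at 100 to 150. For *Dcn*, 17 WT and 58 mgR-LOS fibroblasts lay at 20 to 30 and 13 and 50 barcodes at 10 to 20.

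Most genes were at like levels in treated mutant and WT cells. Of 5276 genes measured in SMCs, 61 (1.16%) were at least 2-fold higher in mgR-LOS and 39 (0.739%) at least 2-fold lower, together 100 genes (1.9%), and 93.5% were within 1.5-fold. Of 5842 genes measured in fibroblasts, 100 (1.71%) were at least 2-fold higher and 62 (1.06%) at least 2-fold lower, together 162 genes (2.77%), and 91.0% were within 1.5-fold. The median log2 ratio over all measured genes was 0.00 in SMCs and 0.02 in fibroblasts. These shares over all genes are the background for the counts of each gene list below. A gene under 20 CPM in one library was measured only where the other library was above that level, which fixed its direction. This applies to every list count below, also where it is not repeated.

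**Figure D1:**
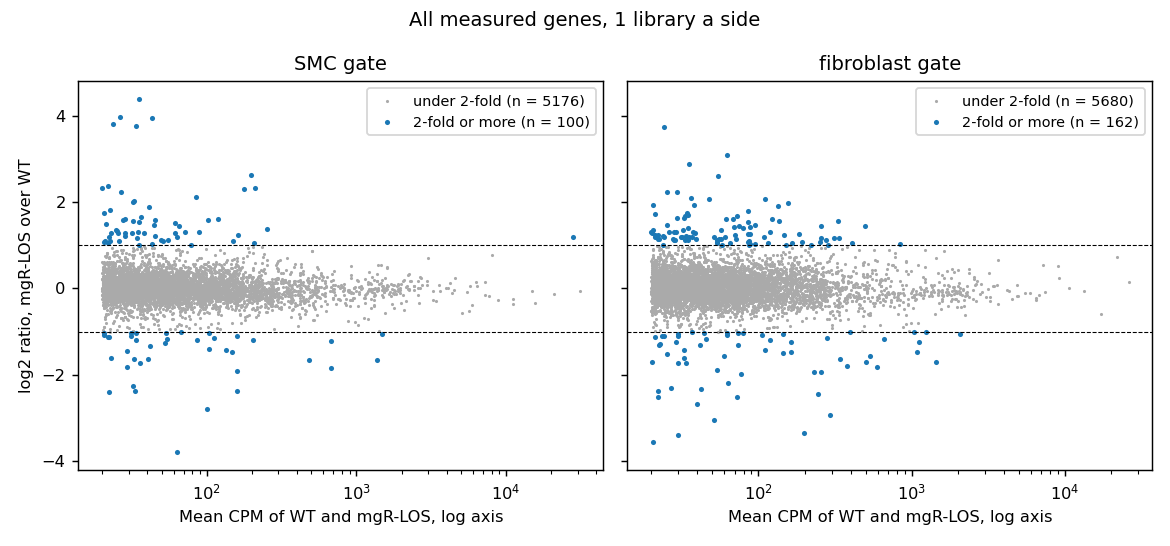
Ratio of mgR-LOS over WT (log2, y axis) against the mean CPM of both libraries (log axis) for every measured gene in the SMC gate (left) and the fibroblast gate (right), with blue points at least 2-fold apart and dashed lines at 2-fold. The 100 SMC genes and 162 fibroblast genes past the lines are few among 5276 and 5842, and *Malat1* is the isolated blue point at the far right of the SMC panel.

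Part of what set the untreated mutant apart from WT was present in treated cells. In SMCs, 70 genes (1.33%) were at least 2-fold higher in mgR than in WT and 67 (1.27%) at least 2-fold lower, and of these 36 were also higher and 26 also lower in mgR-LOS. These are 51.4% and 38.8% of the mgR genes, and 59.0% and 66.7% of the mgR-LOS genes. In fibroblasts, 115 genes (1.97%) were higher and 68 (1.16%) lower in mgR, of which 67 and 33 were also past 2-fold in mgR-LOS, or 58.3% and 48.5% of the mgR genes and 67.0% and 53.2% of the mgR-LOS genes. A gene shared by both comparisons shares its WT value, so these counts describe the 3 libraries and are no test of a common response. The limit of 20 CPM was set on WT and mgR-LOS, also for the mgR counts. Genes high in mgR but low in both other libraries were therefore not counted, which raises the shares of higher mgR genes found in mgR-LOS.

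The targeted gene was low in both gates of the treated mutant. *Fbn1* (ENSMUSG00000027204) lies on the minus strand of chromosome 2 between 125300594 and 125507993 (GRCm38). It was at 250 CPM (246 to 255) in WT SMCs, 66.6 CPM (64.8 to 68.6) in mgR-LOS SMCs and 77.6 CPM (75.1 to 80.2) in mgR SMCs, a ratio of 0.266 (0.257 to 0.275). In fibroblasts it was at 802 CPM in WT, 270 CPM in mgR-LOS and 318 CPM in mgR, a ratio of 0.337 (0.326 to 0.348). Both mutant libraries lay below WT in each gate, as their labels say. After each barcode was thinned to 2000 UMIs to remove the difference in depth, 38.3% of WT SMCs carried a *Fbn1* UMI, against 11.8% in mgR-LOS and 13.4% in mgR. Before thinning these shares were 91.5%, 41.7% and 63.6%. In leukocytes, taken as barcodes with *Ptprc*, no *Pecam1*, under 10 of *Dcn* and under 50 of the SMC panel, 2.59% of WT, 1.38% of mgR-LOS and 0.518% of mgR barcodes carried a *Fbn1* UMI at 2000 UMIs. These leukocytes had median depths of 8519, 6694 and 8026 UMIs over 119, 603 and 1371 barcodes.

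A pair of microfibril genes besides *Fbn1* was low in SMCs. Of 11 measured microfibril genes, 3 were at least 2-fold lower in mgR-LOS SMCs, against 0.739% of all measured SMC genes. The count includes *Fbn1*, the mutated gene itself, whose part in it was set by the genotype. None of the 11 was higher, and the median log2 ratio over the list was -0.27. The lower genes were *Fbn1*, *Mfap4*, for a microfibril-associated protein that binds elastin and collagen, and *Mfap5*, for a small glycoprotein that binds fibrillin-1. *Mfap4* was at 1060 CPM in WT SMCs, 297 CPM in mgR-LOS and 455 CPM in mgR (0.281, 0.276 to 0.285). *Mfap5* was at 727 CPM in WT SMCs, 231 CPM in mgR-LOS and 251 CPM in mgR (0.318, 0.312 to 0.324). In fibroblasts *Mfap5* was level, at 1594 CPM in WT and 1552 CPM in mgR-LOS, and *Mfap4* was low, at 1572 and 662 CPM. Again counting *Fbn1*, 5 of 14 measured microfibril genes were at least 2-fold lower in fibroblasts, against 1.06% of all measured fibroblast genes. They were *Fbn1*, *Mfap4*, *Fibin*, *Ltbp2* and *Adamtsl2*, and *Emilin2* was higher. *Ltbp2*, for a latent TGF-β binding protein of microfibrils, was at 229 CPM in WT, 96.4 CPM in mgR-LOS and 179 CPM in mgR, and *Adamtsl2*, for a secreted glycoprotein that binds fibrillin-1, at 240, 86.3 and 174 CPM. For these 2 genes the mgR level was nearer to WT than that of mgR-LOS.

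Elastin was below WT under treatment, though not in mgR SMCs. *Eln* was at 6074 CPM in WT SMCs, 4117 CPM in mgR-LOS and 7561 CPM in mgR (0.678, 0.674 to 0.681), and in fibroblasts at 2778, 1339 and 2532 CPM (0.482, 0.475 to 0.489). *Lox*, the lysyl oxidase that cross-links elastin and collagen, was at 294 CPM in WT SMCs, 203 CPM in mgR-LOS and 415 CPM in mgR. None of the 7 measured elastic fiber genes was past 2-fold in SMCs. In fibroblasts 2 of 12 were higher, *Fbln7* and *Efemp1*, and *Eln* was lower, against 1.71% and 1.06% of all measured fibroblast genes. *Efemp1*, for fibulin-3, was at 68.8 CPM in WT fibroblasts, 202 CPM in mgR-LOS and 200 CPM in mgR (2.93, 2.73 to 3.16). *Fbln7*, for fibulin-7, was at 18.3, 77.5 and 71.2 CPM, and was measured only through its level in mgR-LOS. For both fibulins the 2 mutant libraries were close to each other and far above WT.

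The lowest ratio of all leading SMC genes was that of *Kcnj15*, for an inward rectifier potassium channel. It was at 117 CPM (114 to 120) in WT SMCs, 8.42 CPM (7.75 to 9.12) in mgR-LOS and 12.5 CPM (11.5 to 13.5) in mgR, a ratio of 0.0718 (0.0658 to 0.0781). At 2000 UMIs 19.9% of WT SMCs, 1.43% of mgR-LOS SMCs and 2.17% of mgR SMCs carried it, and before thinning 63.6%, 4.63% and 7.22%. None of 116 WT leukocytes at that depth carried it, which allows a share of up to 2.59%, against 0.172% of mgR-LOS and 0.148% of mgR leukocytes. *Kcnj15* was low in fibroblasts as well, at 124 CPM in WT, 21.6 CPM in mgR-LOS and 38.0 CPM in mgR.

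*Wif1* and *Rbp4* followed in SMCs. *Wif1*, for a secreted inhibitor of Wnt ligands, was at 175 CPM in WT, 25.1 CPM in mgR-LOS and 29.4 CPM in mgR (0.144, 0.137 to 0.151). *Rbp4*, for the retinol carrier of plasma, was at 268 CPM in WT, 51.5 CPM in mgR-LOS and 50.4 CPM in mgR (0.192, 0.185 to 0.199). Treated and untreated mutant SMCs were alike in these genes and well below WT. At least 2 UMIs of *Rbp4* and *Wif1* together per 10000 were present in 63.5% of WT SMCs, 13.7% of mgR-LOS SMCs and 11.9% of mgR SMCs. The limit was set on these same genes and on barcodes that were not thinned, so the shares restate their fall. In the SMCs below that limit, 19 of the other 22 leading genes were still past 2-fold. The exceptions were *Cdkn1a* (1.92), *Epas1* (1.89) and *Fgfrl1* (0.508), and the ratios of *Igfbp2* (3.37) and *Sncg* (3.00) were smaller there. Whether the makeup of the gate differed, and how far it accounts for the other differences, was not tested.

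*Dsp*, *Htra3* and *Fgfrl1* were also low in both mutant libraries. *Dsp*, for the desmosome protein desmoplakin, was at 197 CPM in WT SMCs, 73.1 CPM in mgR-LOS and 54.1 CPM in mgR. *Htra3*, for a secreted serine protease, was at 151, 56.8 and 50.4 CPM, and *Fgfrl1*, for an FGF receptor without a kinase domain, at 74.0, 30.7 and 35.0 CPM. In all, 9 of the 12 leading lower genes of SMCs, counting *Fbn1*, were also at least 2-fold lower in mgR. Over all measured SMC genes that share was 1.27%. The leading genes were picked for low ratios over the same WT library, so part of this overlap was built in.

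The other 3, *Ccn2*, *Gxylt2* and *Ccn1*, were past 2-fold in mgR-LOS alone. *Ccn2* (connective tissue growth factor, a matricellular target of TGF-β and YAP) was at 2098 CPM (2086 to 2111) in WT SMCs, 666 CPM (660 to 672) in mgR-LOS and 2180 CPM (2167 to 2194) in mgR, with a ratio of 0.318 (0.314 to 0.321) in mgR-LOS and 1.04 (1.03 to 1.05) in mgR. Its relative *Ccn1* was at 939 CPM in WT, 407 CPM in mgR-LOS and 515 CPM in mgR, and *Gxylt2*, for a xylosyltransferase that modifies Notch, at 217, 78.3 and 120 CPM. At 2000 UMIs *Ccn2* was carried by 85.4% of WT SMCs, 55.1% of mgR-LOS SMCs and 83.9% of mgR SMCs, against 12.9%, 4.83% and 18.1% of leukocytes. Unthinned, the shares in SMCs were 98.1%, 83.4% and 98.3%.

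**Figure D2:**
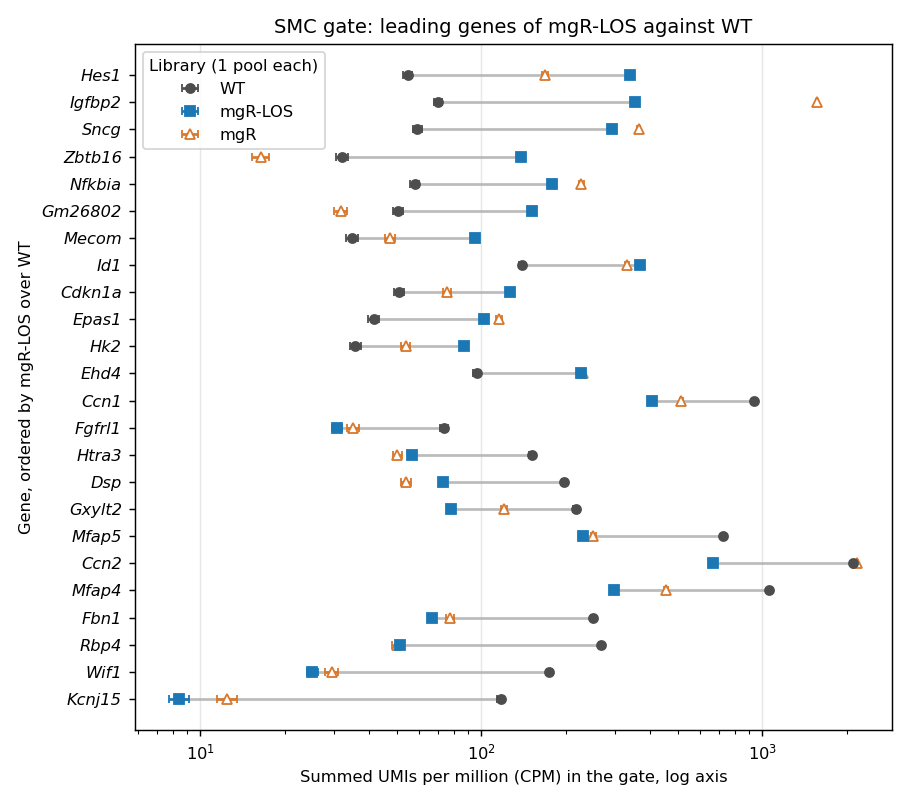
CPM (log axis) in the SMC gate for *Fbn1*, the 12 genes with the highest and the 11 with the lowest other ratios of mgR-LOS over WT, by the naming rule, with circles for WT, squares for mgR-LOS, open triangles for mgR (1 pool each) and bars for 95% Poisson intervals, mostly hidden by the symbols. The mgR triangle lies beside the mgR-LOS square for *Rbp4*, *Wif1*, *Fbn1* and *Ehd4*, beside the WT circle for *Ccn2*, and on the far side of WT for *Zbtb16* and *Gm26802*.

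*Hes1* had the highest ratio among the leading SMC genes. *Hes1*, a transcriptional repressor and target of Notch, was at 54.8 CPM (52.8 to 56.9) in WT, 338 CPM (333 to 342) in mgR-LOS and 169 CPM (165 to 173) in mgR, a ratio of 6.16 (5.92 to 6.40). At 2000 UMIs 7.88% of WT SMCs, 36.1% of mgR-LOS SMCs and 22.1% of mgR SMCs carried a *Hes1* UMI, and unthinned 34.3%, 65.0% and 56.1%. In leukocytes the thinned shares were 6.03%, 9.14% and 4.81%, so the WT share in SMCs lies within what was seen in leukocytes. *Id1*, a BMP target that restrains differentiation, was at 140 CPM in WT SMCs, 367 CPM in mgR-LOS and 330 CPM in mgR (2.62, 2.55 to 2.69).

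*Igfbp2* and *Sncg* stayed above WT by nearly the same ratio under treatment, but from very different levels in mgR. *Igfbp2*, for a binding protein of insulin-like growth factors, was at 70.1 CPM in WT SMCs, 352 CPM in mgR-LOS and 1569 CPM in mgR, a ratio of 5.02 (4.84 to 5.20) for mgR-LOS and 22.4 (21.6 to 23.1) for mgR. *Sncg*, for gamma-synuclein, a small cytosolic protein, was at 59.2 CPM in WT, 293 CPM in mgR-LOS and 363 CPM in mgR (4.95, 4.76 to 5.14). For *Igfbp2* the treated library thus lay between WT and mgR, and for *Sncg* it lay close to mgR. At 2000 UMIs *Igfbp2* was carried by 6.04% of WT, 24.9% of mgR-LOS and 62.1% of mgR SMCs, and *Sncg* by 7.45%, 34.0% and 37.6%. Unthinned, these shares were 16.6%, 45.5% and 85.8% for *Igfbp2* and 20.7%, 58.2% and 68.3% for *Sncg*. Leukocytes carried *Sncg* in 0.862% of WT, 2.41% of mgR-LOS and 1.78% of mgR barcodes. For *Igfbp2* the leukocyte shares were 0 of 116 barcodes in WT, which allows up to 2.59%, 1.21% in mgR-LOS and 12.4% in mgR, where its level in SMCs was also highest.

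Of 14 measured genes linked to SMC modulation, the loss of the contractile state seen in diseased arteries, 5 were at least 2-fold higher in mgR-LOS SMCs and none was lower. They were *Igfbp2*, *Thbs1*, *Vcam1*, *Klf4* and *Bmp2*, and the median log2 ratio of the list was 0.54. Over all measured SMC genes the share at least 2-fold higher was 1.16%. *Thbs1*, *Vcam1* and *Bmp2* were under 20 CPM in WT SMCs and were measured only through their level in mgR-LOS, which fixed their direction. The list holds 24 genes, and those at a mean under 20 CPM were left out. The count and the median are therefore a description and no test of the list. The SMC gate required contractile transcripts and little *Dcn*, so barcodes low in the former or high in the latter were not compared. These values therefore do not give the extent of modulation in any library. *Thbs1*, for the matricellular protein thrombospondin-1, was at 12.9 CPM in WT, 52.1 CPM in mgR-LOS and 149 CPM in mgR. *Vcam1*, for an adhesion receptor of leukocytes, was at 12.7, 51.1 and 185 CPM. Both lay near 4-fold above WT under treatment, with ratios of 4.05 (3.73 to 4.41) and 4.03 (3.71 to 4.39), against 11.6 and 14.6 in mgR. *Klf4*, a transcription factor of phenotypic switching, was at 134 CPM in WT, 280 CPM in mgR-LOS and 253 CPM in mgR. *Bmp2*, a growth factor of the BMP branch, was at 13.8, 41.2 and 42.0 CPM. *Acan*, for the cartilage proteoglycan aggrecan, was at 34.6 CPM in WT, 74.9 CPM in mgR-LOS and 165 CPM in mgR (2.17, 2.05 to 2.29). *Mgp*, for the calcification inhibitor matrix Gla protein, chosen here after its values were seen, was at 5926 CPM in WT SMCs, 10082 CPM in mgR-LOS and 24372 CPM in mgR, so its ratio was 1.70 under treatment and 4.11 without.

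*Zbtb16* was high in mgR-LOS alone, in both gates. *Zbtb16*, for the zinc finger transcriptional repressor PLZF (ENSMUSG00000066687, on the minus strand of chromosome 9 between 48654297 and 48836222), was at 32.0 CPM (30.5 to 33.6) in WT SMCs, 139 CPM (136 to 141) in mgR-LOS and 16.4 CPM (15.3 to 17.6) in mgR, a ratio of 4.33 (4.10 to 4.56). In fibroblasts it was at 13.1 CPM in WT, 112 CPM in mgR-LOS and 21.3 CPM in mgR, a ratio of 8.52 (7.29 to 10.0), the highest among the leading genes of that gate. At 2000 UMIs 5.96% of WT, 22.7% of mgR-LOS and 2.97% of mgR SMCs carried it, as did 2.31%, 18.8% and 3.85% of fibroblasts. Unthinned, these shares were 32.9%, 62.8% and 20.9% of SMCs and 12.2%, 49.7% and 18.4% of fibroblasts. In leukocytes they were 0 of 116 barcodes, which allows up to 2.59%, 4.83% and 1.55% at 2000 UMIs in WT, mgR-LOS and mgR.

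*Mecom*, *Cdkn1a*, *Hk2* and *Gm26802* were the other leading SMC genes that passed 2-fold in mgR-LOS and not in mgR. *Mecom*, for a zinc finger transcription factor, was at 34.7 CPM in WT, 95.3 CPM in mgR-LOS and 47.4 CPM in mgR. *Cdkn1a*, for the cell cycle inhibitor p21, was at 51.0, 127 and 75.9 CPM, and *Hk2*, for the glycolytic enzyme hexokinase 2, at 35.6, 87.0 and 53.9 CPM. For these 3 genes mgR lay between WT and mgR-LOS. *Gm26802* was at 50.7 CPM in WT, 152 CPM in mgR-LOS and 31.6 CPM in mgR, and its ratio was 1.69 with a mitochondrial limit of 5%. *Epas1* and *Ehd4*, by contrast, were at like levels in both mutant libraries. *Epas1*, for the hypoxia-inducible factor HIF-2α, was at 41.4 CPM in WT, 102 CPM in mgR-LOS and 116 CPM in mgR, and *Ehd4*, for an endosomal ATPase, at 96.5, 227 and 230 CPM.

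Contractile genes are described only among barcodes that passed the SMC gate, which itself required contractile transcripts, so barcodes low in them were not compared. The median log2 ratio of 30 measured contractile genes that did not define the gate was -0.11. Of these, 1 was past 2-fold, against 1.9% of all measured SMC genes. That gene was *Pln*, for phospholamban, which restrains the calcium pump of the sarcoplasmic reticulum. *Pln* was at 16.5 CPM in WT, 40.0 CPM in mgR-LOS and 39.0 CPM in mgR, and was measured only through its level in mgR-LOS. *Actn1*, for the actin cross-linker α-actinin-1, was at 1387 CPM in WT, 1226 CPM in mgR-LOS and 1671 CPM in mgR, and *Mylk4*, for a myosin light-chain kinase, at 513, 326 and 570 CPM. *Myocd*, the coactivator of the contractile genes, was at 117, 172 and 157 CPM. None of 13 measured ion channel and calcium handling genes was past 2-fold. *Atp2a2*, the calcium pump itself, was at 618 CPM in WT, 446 CPM in mgR-LOS and 467 CPM in mgR.

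TGF-β genes differed by list and by gate. None of 19 measured ligands, receptors and mediators was past 2-fold in SMCs, with a median log2 ratio of 0.10. *Tgfb2* was at 172 CPM in WT, 213 CPM in mgR-LOS and 258 CPM in mgR, and *Tgfb3* at 60.7, 72.9 and 110 CPM, so mgR-LOS lay between the other libraries for both ligands. *Smad7*, the inhibitory Smad induced by the pathway, was at 136, 244 and 214 CPM (1.79, 1.74 to 1.84). Among 19 measured response genes, 2 were higher (*Id1* and *Cdkn1a*) and 1 was lower (*Ccn2*), against 1.16% and 0.739% of all measured SMC genes. *Pmepa1*, a feedback inhibitor of the pathway, was at 1246 CPM in WT SMCs, 724 CPM in mgR-LOS and 1127 CPM in mgR (0.581, 0.574 to 0.588). In fibroblasts *Pmepa1* was at 1172, 660 and 967 CPM, so in both gates this gene was lowest under losartan. Among 22 measured response genes in fibroblasts none was higher and 3 were lower, *Ltbp2*, *Comp* and *Cilp*. Over all measured fibroblast genes 1.71% were higher and 1.06% lower. *Cilp*, for a cartilage intermediate layer protein, was at 213 CPM in WT, 75.3 CPM in mgR-LOS and 92.7 CPM in mgR. Among 23 fibroblast genes for ligands, receptors and mediators, *Gdf10* and *Inhba* were higher. *Inhba*, for the activin A subunit, was at 34.4 CPM in WT fibroblasts, 72.5 CPM in mgR-LOS and 87.5 CPM in mgR.

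The receptor that losartan blocks was barely captured in SMCs. *Agtr1a* was at 2.52 CPM in WT, 2.92 CPM in mgR-LOS and 1.95 CPM in mgR, under the limit of 20 CPM, and its ratio was 1.16 (0.926 to 1.46). Of 7 measured genes of the renin-angiotensin system and its signaling, 2 were at least 2-fold lower in SMCs, against 0.739% of all measured SMC genes. Both code for regulators of G-protein signaling. *Rgs2*, which limits Gq signals of the angiotensin receptor, was at 54.8 CPM in WT, 16.4 CPM in mgR-LOS and 11.6 CPM in mgR (0.300, 0.280 to 0.321). *Rgs5*, a regulator typical of pericytes and SMCs, was at 120, 52.8 and 42.0 CPM. None of 9 such genes was past 2-fold in fibroblasts, where *Rgs2* was at 41.6, 59.9 and 65.6 CPM. Of the nitric oxide and cGMP genes, none of 10 was past 2-fold in SMCs, and 9 had a ratio above 1. *Gucy1a1*, for the α1 subunit of the nitric oxide receptor guanylate cyclase, was at 259 CPM in WT SMCs, 423 CPM in mgR-LOS and 211 CPM in mgR (1.63, 1.60 to 1.67).

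**Figure D3:**
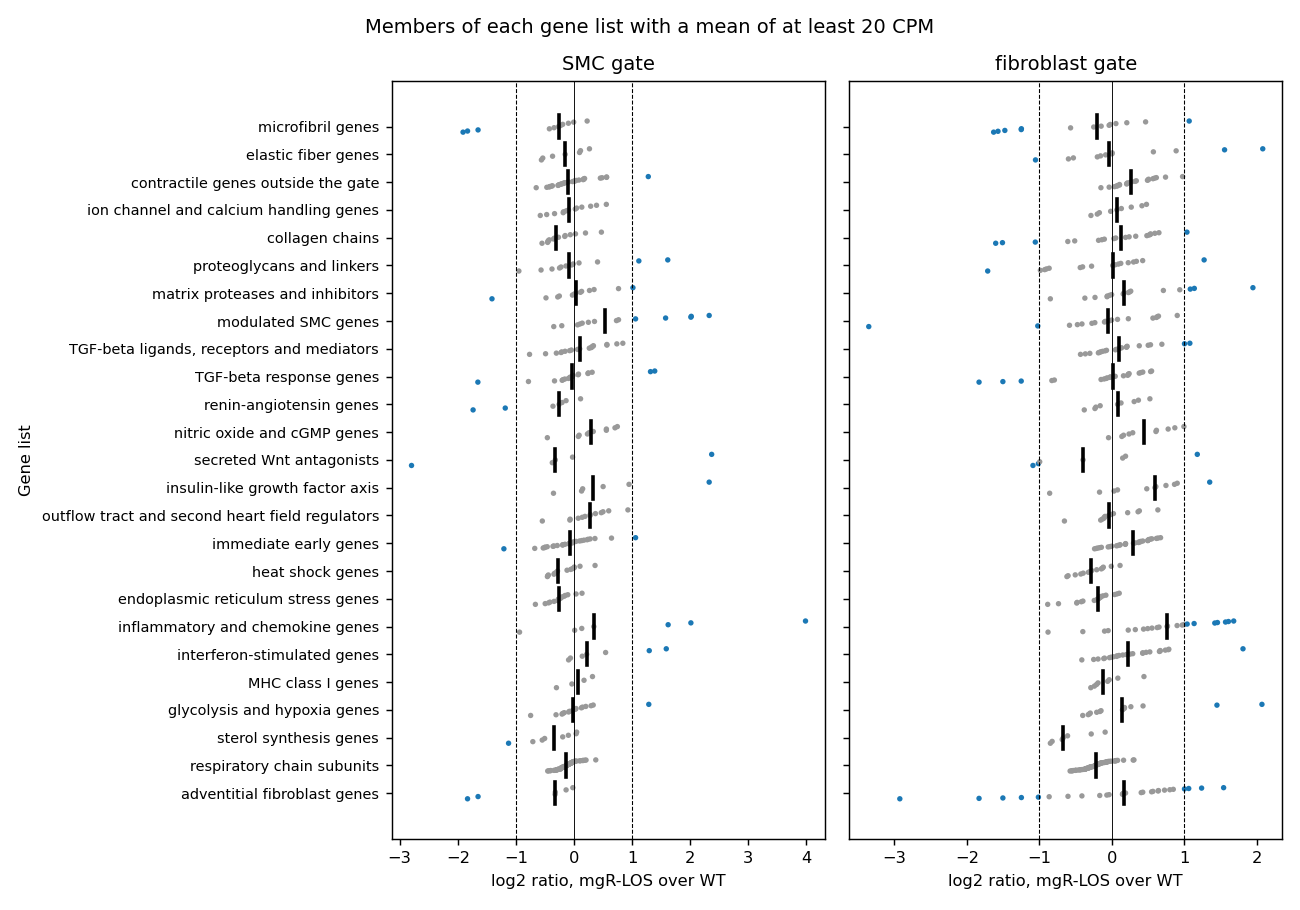
Log2 ratio of mgR-LOS over WT (x axis) for each measured member of 25 gene lists (rows), in the SMC gate (left) and the fibroblast gate (right). Points are genes, blue where past 2-fold, vertical black bars are list medians and dashed lines mark 2-fold, and the inflammatory and chemokine list of fibroblasts has its median at 0.76.

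Inflammatory and chemokine genes were mostly above WT in treated fibroblasts. Of 23 measured genes of the inflammatory and chemokine list, 7 were at least 2-fold higher, against 1.71% of all measured fibroblast genes. None was lower and 19 had a ratio above 1, with a median log2 ratio of 0.76 against 0.02 over all genes of the gate. The 7 were *Ccl2*, *Ccl7*, *Cxcl1*, *Cxcl2*, *Cxcl10*, *Ptgs2* and *Tnfaip3*. In SMCs 3 of 7 measured members were higher, namely *Nfkbia*, *Vcam1* and *Cxcl2*, against 1.16% of all measured SMC genes. *Vcam1* and *Cxcl2* were under 20 CPM in WT SMCs and were measured only through their level in mgR-LOS. *Vcam1* is also among the genes of SMC modulation. Nuclear factor κB (NF-κB) is the transcription factor through which cytokines induce many chemokines, and *Nfkbia* codes for IκBα, the inhibitor that NF-κB itself induces.

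Promoter sequences of 5 of these genes are shown because they were above WT together and share a run of letters. Among the 9 genes of the list that passed 2-fold in either gate, 6 had a RefSeq promoter window (GRCm38.p6, 250 bases before to 50 after the start), and the run of 9 letters found on either strand in most of these genes was GGAAATTCC, or GGAATTTCC on the other strand. It is of the form of a κB site and was in the windows of 5 of the 6 genes, all but *Ptgs2*, whereas no other run of 9 letters was in more than 3. Of all 32851 windows, 104 (0.317%) held it. The run was picked for being shared, so its count among these genes is a description. The 250 bases before each start are printed from 5′ to 3′ on the strand of the gene, with the run in capitals. It lies 20 bases before the start of *Nfkbia*, 61 before that of *Cxcl1*, 87 before that of *Cxcl2*, 149 before that of *Cxcl10* and 15 before that of *Tnfaip3*, where the other of 2 windows lacks it.
*Nfkbia*, chr12:55492648-55492897, minus strand: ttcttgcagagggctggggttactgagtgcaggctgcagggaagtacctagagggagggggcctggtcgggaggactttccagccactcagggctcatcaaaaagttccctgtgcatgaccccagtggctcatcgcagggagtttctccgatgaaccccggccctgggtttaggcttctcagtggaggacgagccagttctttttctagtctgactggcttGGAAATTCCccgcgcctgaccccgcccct
*Cxcl1*, chr5:90890995-90891244, plus strand: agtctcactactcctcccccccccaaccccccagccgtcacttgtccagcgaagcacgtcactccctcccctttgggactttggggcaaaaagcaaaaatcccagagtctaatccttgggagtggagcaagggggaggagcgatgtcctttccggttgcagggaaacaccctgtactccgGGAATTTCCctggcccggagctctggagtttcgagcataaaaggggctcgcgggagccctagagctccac
*Cxcl2*, chr5:90903649-90903898, plus strand: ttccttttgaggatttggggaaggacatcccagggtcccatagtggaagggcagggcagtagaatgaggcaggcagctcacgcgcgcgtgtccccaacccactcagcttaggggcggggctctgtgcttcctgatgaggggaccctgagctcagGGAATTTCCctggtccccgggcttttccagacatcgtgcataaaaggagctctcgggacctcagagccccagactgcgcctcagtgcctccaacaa
*Cxcl10*, chr5:92348890-92349139, minus strand: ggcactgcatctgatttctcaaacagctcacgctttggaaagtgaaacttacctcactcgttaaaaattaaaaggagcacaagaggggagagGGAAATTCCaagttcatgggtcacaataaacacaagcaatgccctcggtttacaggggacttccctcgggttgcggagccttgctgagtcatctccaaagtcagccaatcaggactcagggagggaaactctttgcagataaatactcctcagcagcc
*Tnfaip3*, chr10:19015411-19015660, minus strand: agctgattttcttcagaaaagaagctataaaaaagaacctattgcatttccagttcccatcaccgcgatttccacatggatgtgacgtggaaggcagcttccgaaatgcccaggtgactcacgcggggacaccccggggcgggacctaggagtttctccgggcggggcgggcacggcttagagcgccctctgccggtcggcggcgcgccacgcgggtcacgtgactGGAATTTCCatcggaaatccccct
A match of letters says nothing of binding in these cells.

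*Nfkbia* (ENSMUSG00000021025, chromosome 12 between 55489410 and 55492647) was at 58.0 CPM (56.0 to 60.2) in WT SMCs, 178 CPM (175 to 182) in mgR-LOS and 227 CPM (223 to 232) in mgR, a ratio of 3.08 (2.95 to 3.20). *Cxcl1* (ENSMUSG00000029380, chromosome 5 between 90891241 and 90893115), a chemokine for neutrophils, was at 266 CPM (257 to 275) in WT fibroblasts, 729 CPM (718 to 740) in mgR-LOS and 1128 CPM (1115 to 1141) in mgR, a ratio of 2.74 (2.64 to 2.85). Its neighbor *Cxcl2* was at 34.6, 111 and 155 CPM in fibroblasts (3.20, 2.90 to 3.55). For *Nfkbia*, *Cxcl1* and *Cxcl2* in these gates mgR-LOS lay between WT and mgR. In SMCs *Cxcl2* was at 3.10 CPM in WT, 49.2 CPM in mgR-LOS and 46.9 CPM in mgR, and its ratio of 15.8 was 4.07 among SMCs with no UMI of *Ptprc*, *Lyz2*, *Cd74*, *C1qa*, *C1qb* or *Pecam1* and 4.12 without called doublets. The ratio of *Nfkbia* was 2.88 and 2.91 under the same restrictions.

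Immune markers were also higher in mgR-LOS SMCs. The 17 immune markers, of which *Cxcl2* is also on the inflammatory list, summed to 25.0 CPM in WT SMCs, 459 CPM in mgR-LOS and 332 CPM in mgR, with none of them at 0 in WT or mgR-LOS. Without *Cxcl2* the other 16 summed to 21.9, 409 and 285 CPM. *Lyz2* was at 3.18, 67.2 and 59.6 CPM. No WT SMC had at least 50 UMIs of these markers per 10000, whereas 80 mgR-LOS SMCs (1.02%) did and held 77.2% of the immune UMIs of that gate, as did 37 mgR SMCs (1.21%). In fibroblasts, where *Ptprc* had to be 0, the same markers summed to 252 CPM in WT, 394 CPM in mgR-LOS and 386 CPM in mgR, and without *Cxcl2* to 217, 283 and 231 CPM. Of the 5 immune markers above 20 CPM in fibroblasts, 3 had ratios below 1 and the median log2 ratio was -0.11. Only *Cxcl2* was past 2-fold there. Without a limit on level, 13 of the 16 markers other than *Cxcl2* had fibroblast ratios above 1 and 3 had ratios below 1. All 24 leading SMC genes were still past 2-fold among SMCs without immune UMIs.

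*Ccl2*, a chemokine for monocytes, was at 60.6 CPM in WT fibroblasts, 184 CPM in mgR-LOS and 379 CPM in mgR (3.05, 2.82 to 3.29). *Ccl7*, from the same gene cluster, was at 57.4, 118 and 218 CPM, and *Ptgs2*, for cyclooxygenase-2, at 166, 491 and 695 CPM. The treated library lay between WT and mgR for these 3 genes. *Cxcl10*, a chemokine induced by interferon, was instead highest under losartan, at 48.2 CPM in WT, 129 CPM in mgR-LOS and 74.4 CPM in mgR. *Tnfaip3*, for A20, which restrains NF-κB, was at 33.4, 73.3 and 94.0 CPM (2.19, 1.97 to 2.44). *Tnfaip2*, a gene induced by TNF that is not on the list, was at 15.6 CPM in WT, 94.3 CPM in mgR-LOS and 95.1 CPM in mgR (6.06, 5.24 to 7.03). *Il6* was just under the limit, at 107, 214 and 306 CPM, with a ratio interval of 1.88 to 2.12. At 2000 UMIs *Cxcl1* was carried by 16.2% of WT, 33.2% of mgR-LOS and 44.9% of mgR fibroblasts, against 0.516%, 3.31% and 6.36% of SMCs, and before thinning by 26.3%, 44.8% and 61.0% of fibroblasts. Leukocytes carried *Cxcl1* in 20.7%, 26.2% and 24.1%, so the WT share in fibroblasts was below that in WT leukocytes. Whether the leukocyte shares reflect transcripts of their own was not tested.

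Other genes high in treated fibroblasts fell into those shared with mgR, 8 of 12 leading genes, and those that were not. Over all measured fibroblast genes 1.97% were at least 2-fold higher in mgR, and both comparisons share the WT library. *Hk2* was at 42.6 CPM in WT fibroblasts, 178 CPM in mgR-LOS and 104 CPM in mgR (4.19, 3.84 to 4.59), so hexokinase 2 was highest under losartan in both gates. *Ildr2* was at 33.7, 102 and 151 CPM, and *Gm12840* at 63.3, 251 and 167 CPM. *Ccn3*, for a matricellular protein, was at 56.2, 211 and 410 CPM, but most SMCs carried this gene. At 2000 UMIs *Ccn3* was in 8.99% of WT, 22% of mgR-LOS and 33.0% of mgR fibroblasts, against 81.0%, 91.9% and 94.2% of SMCs and 7.76%, 13.3% and 15.2% of leukocytes, so the WT share in fibroblasts was near that of leukocytes. Unthinned, the fibroblast shares were 30.1%, 48.6% and 64.2%. All 6 measured SMC markers had ratios above 1 in the fibroblast gate without passing 2-fold, and their part in the ratio of *Ccn3* was not tested.

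*Isg15*, *Smpd3*, *Inmt* and *Zbtb16* passed 2-fold in mgR-LOS fibroblasts and not in mgR. *Isg15*, for a ubiquitin-like protein induced by interferon, was at 38.3 CPM in WT, 134 CPM in mgR-LOS and 36.1 CPM in mgR (3.50, 3.18 to 3.86). Of 26 measured interferon-stimulated genes 1, *Isg15*, was past 2-fold, against 2.77% of all measured fibroblast genes. The median log2 ratio of that list was 0.23. *Smpd3*, for a neutral sphingomyelinase, was at 30.4, 93.3 and 45.2 CPM, and *Inmt*, for an indole methyltransferase, at 43.7, 127 and 54.5 CPM. In SMCs 2 of 7 measured interferon-stimulated genes were at least 2-fold higher, *Irf1* and *Ifi27l2a*, against 1.16% of all measured SMC genes. Immune markers summed to 25.0 CPM in WT SMCs and 459 CPM in mgR-LOS SMCs, and their part in this count was not tested.

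**Figure D4:**
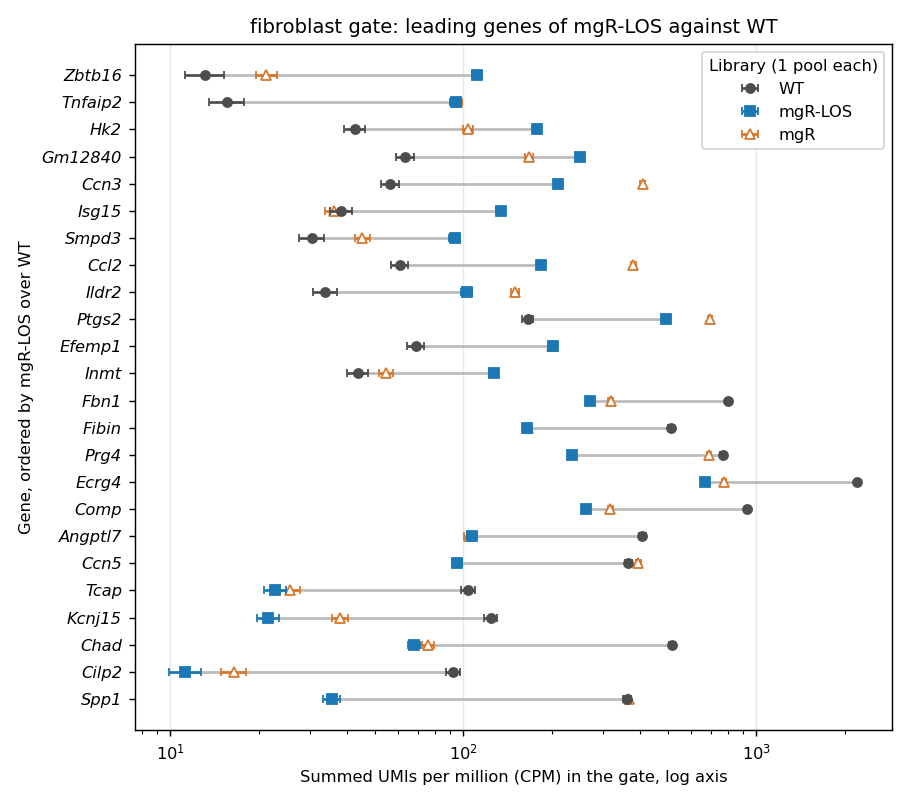
CPM (log axis) in the fibroblast gate for *Fbn1*, the 12 genes with the highest and the 11 with the lowest other ratios of mgR-LOS over WT, by the naming rule, with circles for WT, squares for mgR-LOS, open triangles for mgR (1 pool each) and bars for 95% Poisson intervals. For *Spp1*, *Ccn5* and *Prg4* the mgR triangle lies beside the WT circle, and for *Angptl7*, *Fibin* and *Efemp1* it lies beside the mgR-LOS square.

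Among the leading genes of fibroblasts, the lowest ratios after that of *Spp1*, given further on, were those of *Cilp2* and *Chad*. *Chad*, for the matrix protein chondroadherin, was at 515 CPM in WT, 67.8 CPM in mgR-LOS and 75.7 CPM in mgR (0.132, 0.125 to 0.139). *Comp*, for cartilage oligomeric matrix protein, was at 931, 262 and 318 CPM. *Cilp2*, for a cartilage intermediate layer protein, was at 92.2, 11.2 and 16.5 CPM, and *Angptl7*, for a secreted angiopoietin-like protein, at 408, 107 and 104 CPM. Both mutant libraries were low in these 4 genes. *Tcap*, for the sarcomere protein telethonin, was at 104, 22.8 and 25.6 CPM, *Ecrg4*, for a secreted peptide precursor, at 2197, 670 and 775 CPM, and *Fibin* at 512, 165 and 166 CPM. As in SMCs, 9 of the 12 leading lower genes, counting *Fbn1*, were also at least 2-fold lower in mgR. Over all measured fibroblast genes that share was 1.16%, and here too both comparisons share the WT library.

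Fibroblasts with at least 5 UMIs of *Chad*, *Comp*, *Cilp2* and *Angptl7* together per 10000 made up 28.7% of the gate in WT, 10.7% in mgR-LOS and 15.5% in mgR. The limit was set on genes picked for their low ratios and on barcodes that were not thinned, so the shares restate their fall. Among the fibroblasts below that limit, 18 of the other 20 leading genes were still past 2-fold. *Ecrg4* had a ratio of 0.740 there and *Prg4* of 0.501, and *Spp1* moved from 0.0980 to 0.497. *Col11a1*, a collagen of cartilage, changed from a ratio of 0.330 to 1.45, so its direction rests on these barcodes. *Fbn1* (0.309), *Cxcl1* (2.20), *Ptgs2* (2.51) and *Zbtb16* (8.11) kept their direction and stayed past 2-fold in the remaining fibroblasts. Whether the makeup of the fibroblast gate differed, and how far it accounts for the other differences, was not tested.

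*Spp1*, *Ccn5* and *Prg4* were near WT in mgR and low in mgR-LOS alone. *Spp1*, for the phosphoprotein osteopontin, was at 362 CPM (352 to 372) in WT fibroblasts, 35.5 CPM (33.1 to 38.0) in mgR-LOS and 367 CPM (359 to 374) in mgR, a ratio of 0.0980 (0.0909 to 0.106). *Ccn5*, a matricellular protein related to *Ccn2*, was at 366, 95.1 and 396 CPM (0.260, 0.247 to 0.273). *Prg4*, for the lubricating proteoglycan lubricin, was at 767, 234 and 689 CPM. At 2000 UMIs *Ccn5* was carried by 28.1% of WT, 10.2% of mgR-LOS and 30.5% of mgR fibroblasts, against 0.862%, 0.345% and 1.26% of leukocytes, and unthinned by 42.4%, 18.3% and 47.3%.

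Of 20 measured collagen chains in fibroblasts, *Col14a1* was at least 2-fold higher in mgR-LOS and 3 were lower, *Col8a1*, *Col8a2* and *Col11a1*, with a median log2 ratio of 0.12. Over all measured fibroblast genes 1.71% were higher and 1.06% lower. The direction of *Col11a1*, at 49.3, 16.2 and 53.9 CPM, rests on the barcodes rich in *Chad*, *Comp*, *Cilp2* and *Angptl7*, as given above. *Col14a1*, a fibril-associated collagen, was at 547 CPM in WT, 1121 CPM in mgR-LOS and 1120 CPM in mgR. *Col8a1* and *Col8a2*, the network-forming chains of collagen VIII, were at 195, 93.6 and 261 CPM and at 37.3, 13.1 and 17.3 CPM. The fibrillar chain *Col1a1* was at 5868, 8495 and 7499 CPM (1.45, 1.44 to 1.46). None of 14 measured chains was past 2-fold in SMCs, where 11 had a ratio below 1. Among matrix proteases and inhibitors, 3 of 17 were higher in fibroblasts and none was lower, against 1.71% and 1.06% of all measured fibroblast genes. Of the 3, *Adamts4* was under 20 CPM in WT and was measured only through its level in mgR-LOS. *Mmp3*, for stromelysin-1, was at 124 CPM in WT, 263 CPM in mgR-LOS and 405 CPM in mgR, *Mmp14*, a membrane-bound collagenase, at 44.9, 98.8 and 79.2 CPM, and *Adamts4*, for an aggrecanase, at 8.51, 32.7 and 23.8 CPM.

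The Wnt and insulin-like growth factor lists had members in both directions. Of 7 measured Wnt antagonists in fibroblasts, *Sfrp1* was higher, and *Sfrp2* and *Frzb* were lower, against 1.71% and 1.06% of all measured fibroblast genes. *Sfrp1* was at 206 CPM in WT, 467 CPM in mgR-LOS and 465 CPM in mgR, whereas *Sfrp2* was at 533, 264 and 324 CPM. In SMCs 1 of 5 was higher, *Sfrp1*, at 7.05, 36.5 and 18.5 CPM, and 1 was lower, *Wif1*. Over all measured SMC genes 1.16% were higher and 0.739% lower. In that gate *Sfrp1* was measured only through its level in mgR-LOS. Of 11 measured genes of the insulin-like growth factor axis in fibroblasts, 1 was higher, against 1.71% of all measured fibroblast genes. Of the 11, 9 had ratios above 1. The higher gene, *Pappa*, was measured only through its level in mgR-LOS. *Pappa*, for a protease of binding proteins, was at 11.7, 29.7 and 44.1 CPM, *Igfbp4*, a substrate of that protease, at 1149, 2091 and 2420 CPM, and *Igf1*, the growth factor itself, at 806, 445 and 422 CPM.

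Several broad gene groups had no or almost no member past 2-fold. Over all measured genes the share past 2-fold was itself only 1.9% in SMCs and 2.77% in fibroblasts. Counts this low in lists of this size are near that background. Of 70 measured respiratory chain subunits none was past 2-fold in either gate, and 60 in SMCs and 62 in fibroblasts had a ratio below 1, with median log2 ratios of -0.13 and -0.22. Heat shock genes had medians of -0.28 and -0.29 with none past 2-fold, over 15 and 14 genes. Genes of endoplasmic reticulum stress likewise had none past 2-fold, with medians of -0.25 and -0.19. *Manf*, a secreted factor of this response, was at 219 CPM in WT SMCs, 138 CPM in mgR-LOS and 228 CPM in mgR. All 7 measured sterol synthesis genes had a ratio below 1 in fibroblasts, with a median of -0.67 and none past 2-fold, and *Insig1*, which restrains sterol synthesis, was lower in SMCs at 30.5 CPM in WT, 14.0 CPM in mgR-LOS and 29.2 CPM in mgR. Of 28 and 31 measured immediate early genes, *Klf4* was higher and *Ccn1* lower in SMCs and none was past 2-fold in fibroblasts. The MHC class I genes had none past 2-fold in either gate.

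The summed globin genes went in opposite directions in the 2 gates, but only through a few globin-rich barcodes. The 5 red cell genes summed to 47.4 CPM in WT SMCs, 171 CPM in mgR-LOS and 87.9 CPM in mgR, and in fibroblasts to 692, 141 and 11.8 CPM. The fibroblast ratio of *Hba-a1* was 0.253, and 1.36 among fibroblasts without immune or *Pecam1* UMIs, where it was no longer opposite to that of SMCs. In WT, 3 fibroblasts with at least 50 of these UMIs per 10000 held 98.9% of the WT sum, and 10 mgR-LOS SMCs held 80.8% of theirs. In the barcodes below that limit, the sum was 7.61 CPM in WT fibroblasts and 40.5 CPM in mgR-LOS fibroblasts. Among SMCs below it the sum was 6.63 and 32.8 CPM, so there mgR-LOS was above WT in both gates. *Malat1*, a nuclear noncoding RNA, was at 17001 CPM in WT SMCs, 38925 CPM in mgR-LOS and 24601 CPM in mgR, and in fibroblasts at 16465, 27134 and 16329 CPM. The median mitochondrial share was 6.26% in WT SMCs and 5.33% in mgR-LOS SMCs, and 3.47% and 3.20% in fibroblasts. Whether nuclear RNA or mitochondrial content plays a part in the differences between libraries was not tested.

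**Figure D5:**
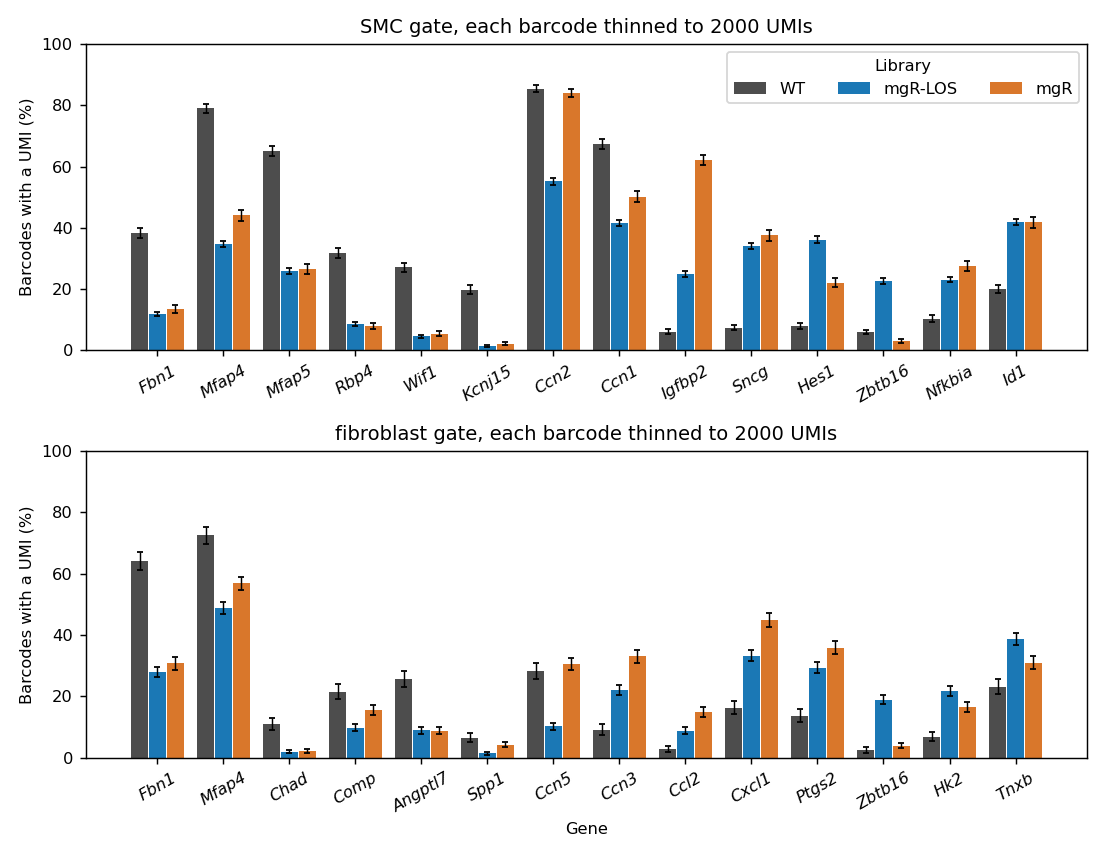
Share of barcodes with at least 1 UMI of a gene (%, y axis) in the SMC gate (top) and the fibroblast gate (bottom) after each barcode was thinned to 2000 UMIs, with bars for WT, mgR-LOS and mgR and 95% exact binomial intervals. At equal depth *Fbn1* is in fewer barcodes of both mutant libraries, *Zbtb16* is in more of mgR-LOS alone and *Ccn2* is in fewer of mgR-LOS alone.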

How the data were processed

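Single-cell suspensions of pooled ascending aortas were measured in 3 libraries, 1 per condition, with Chromium Next GEM 3′ v3.1 kits. The authors deposited raw UMI counts per gene and barcode on GRCm38 (mm10), without normalization, for 32285 genes, made with Cell Ranger 6.0.1 per the labels, whereas the file headers name 5.0.1 for WT and mgR and 6.0.1 for mgR-LOS. Groups were taken from the genotype labels and pool sizes from the Methods of the study. The 3 libraries held 83338726 (WT), 121436873 (mgR-LOS) and 123956320 (mgR) UMIs in 7858, 14663 and 10657 barcodes, of which 5361, 12721 and 8076 passed. Gene positions come from GENCODE M21, matched by gene ID.

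UMIs were summed over the barcodes of each gate and scaled to CPM with numpy 2.4.6, pandas 2.3.3 and scipy 1.17.1. Sums have exact Poisson, ratios exact conditional binomial and shares exact (Clopper-Pearson) intervals at 95%. The limit given beside a share of 0 is 3 barcodes of the total. Thinning to 2000 UMIs left out 70 WT, 76 mgR-LOS and 47 mgR SMCs and 49, 141 and 48 fibroblasts. Ribosomal and mitochondrial genes stayed in the totals. Doublets were kept in the main values. An artificial-neighbor score (scikit-learn 1.9.0, 25% artificial doublets, 10 components, 0.8% per 1000 barcodes) called 4.27%, 11.2% and 9.51% of the SMC gate and 1.19%, 1.59% and 2.29% of the fibroblast gate in WT, mgR-LOS and mgR. The calculations were tested on simulated data. Figures were drawn with matplotlib 3.10.9.

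Named were *Fbn1* and the 12 highest and 12 lowest ratios per gate at a mean of at least 50 CPM. Marker, globin, ribosomal and mitochondrial genes were left out of these ratios. Also named were up to 4 members of each list with the largest ratios at 20 CPM or more. Some genes the study names for its single-cell data were added, but others, such as *Dcn*, *Lum*, *Mmp2* and *Tgfb1*, were given no level. Genes outside this rule (*Mgp*, *Malat1*, *Il6*, *Agtr1a*, *Col1a1*, list members past 2-fold and those with opposite directions in the gates) were chosen after their values were seen. The comparison, the lists and the gates were chosen with earlier results of these data known. Alternatives covered the quality limits, the gates, scaling, thinning, doublets, the fold and the level required.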

Additional observations from a re-analysis of the deposited data

Results flagged for a closer look

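In all, 9 genes were at least 1.5-fold higher in mgR-LOS than in WT in one gate and at least 1.5-fold lower in the other. They were sought among the genes measured in both gates, out of 5276 measured in SMCs and 5842 in fibroblasts. The difference between the gates was not tested, since each side is 1 library. *Ptgs2*, for cyclooxygenase-2, had a ratio of 0.522 in SMCs, from 53.2 to 27.8 CPM, and of 2.96 in fibroblasts, and in mgR it was above WT in both gates (101 and 695 CPM). *Adm*, for the vasodilator adrenomedullin, had a ratio of 0.596 in SMCs and 2.73 in fibroblasts. *Bmp3*, a BMP family ligand, had a ratio of 0.282 in SMCs, from 45.6 to 12.9 CPM, and 1.89 in fibroblasts, from 14.3 to 26.9 CPM. *Tnxb*, for the matrix protein tenascin-X, was at 0.543 in SMCs and 2.12 in fibroblasts (163 to 345 CPM), *Sema3d*, for a secreted guidance cue, at 0.522 and 2.12, and the transcription factor *Osr1* at 0.665 and 1.55. *Cox4i2*, for a respiratory chain subunit isoform, went the other way, at 1.73 in SMCs and 0.401 in fibroblasts. The globin genes *Hba-a1* (4.99 in SMCs, 0.253 in fibroblasts) and *Hbb-bs* (2.85 and 0.182) also did, on the few globin-rich barcodes described above, but among fibroblasts without immune or *Pecam1* UMIs the ratio of *Hba-a1* was 1.36, no longer opposite. Outside the globin-rich barcodes the summed red cell genes were above WT in both gates of mgR-LOS.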

How the results depend on the processing

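No paired analysis was possible because each condition is 1 library without a replicate number, and for the same reason no replicate could be left out. The numbers of genes past 2-fold (61 higher and 39 lower in SMCs, 100 and 62 in fibroblasts) stayed within 1.5 times under the other mitochondrial, gene, gate, scaling, weighting, thinning and doublet settings. They moved with the fold and level required, to 199 and 145 in SMCs and 333 and 195 in fibroblasts at 1.5-fold, 21 and 15 and 24 and 26 at 3-fold, 186 and 100 and 199 and 138 at a mean of 5 CPM, and 10 and 14 and 25 and 26 at 100 CPM. Fibroblasts low in *Chad*, *Comp*, *Cilp2* and *Angptl7* gave 38 lower genes. That restriction and those on *Rbp4* and *Wif1*, immune markers and red cell genes were chosen after seeing the data. With a mitochondrial limit of 5% the share of SMCs turned from below WT to above it, 14.2 percentage points higher in mgR-LOS (41.4% against 27.2%), and the difference in the share of fibroblasts was -15.5 points. Removing called doublets put the fibroblast share at 1.83 points above WT. The cause was not tested. All 24 leading genes of each gate kept their direction in every setting they could be computed in. The ratio of *Hba-a1* in fibroblasts reversed to 1.36 among those without immune or *Pecam1* UMIs, and that of *Col11a1* to 1.45 among those low in *Chad*, *Comp*, *Cilp2* and *Angptl7*. Depth limits genes under 20 CPM, such as *Agtr1a*.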
